A study of Mus musculus with 4 samples.

Results

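The cyclin-dependent kinase (CDK) inhibitor genes Cdkn1a, Cdkn1b, Cdkn2a, Cdkn2b, Cdkn2c and Cdkn2d were followed in cultured mouse fibroblasts homozygous for MD1 at Smchd1 and in fibroblasts wild-type for Smchd1. The 6 genes were chosen by symbol, and all 6 were found among the 22691 genes of the table. Embryonic fibroblasts were grown from female fetuses at E13.5, and poly(A) RNA was sequenced. There were 2 libraries of the genotype Smchd1 MD1/MD1; Xist deltaA/+ (MD1) and 2 libraries of the genotype Smchd1 +/+; Xist deltaA/+ (WT). Fibroblasts of both genotypes therefore carried the Xist deltaA allele, which came from the C57BL6/J mother. The fathers were F1 males of JF1 and C57BL6/J, so parts of the paternal autosomes may be JF1 in one culture and C57BL6/J in another, which the table does not show. The labels do not say whether the 2 libraries of a genotype came from separate fetuses, nor how often the fibroblasts had been passaged.

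CDK inhibitors hold back the cell cycle by binding the kinases that drive it. The Ink4 proteins p16 (from Cdkn2a), p15 (Cdkn2b), p18 (Cdkn2c) and p19 (Cdkn2d) bind CDK4 and CDK6 and keep them from the D-type cyclins. The Cip/Kip proteins p21 (Cdkn1a) and p27 (Cdkn1b) bind cyclin-CDK complexes more broadly. With the kinases blocked, the Rb protein stays active and E2F target genes, which encode much of the replication machinery, stay low. Cdkn2a also encodes p19ARF, read in another frame from its own first exon, which binds MDM2 and so protects p53, the activator of Cdkn1a. Mouse embryonic fibroblasts are a classic model of culture senescence: with passage, products of Cdkn2a, Cdkn2b and Cdkn1a accumulate and the cells stop dividing.

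The 3 inhibitor genes best known from culture senescence, Cdkn2b, Cdkn2a and Cdkn1a, had lower levels in MD1 fibroblasts, while Cdkn1b, Cdkn2c and Cdkn2d differed by less than 1.5-fold. The level is the authors' mean FPKM of a genotype, a fragment count scaled by gene length and library size. It has no value per library, so no error, test or n can be given, and a single library could set a difference. The plot of levels by gene shows these means.

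**Figure D1:**
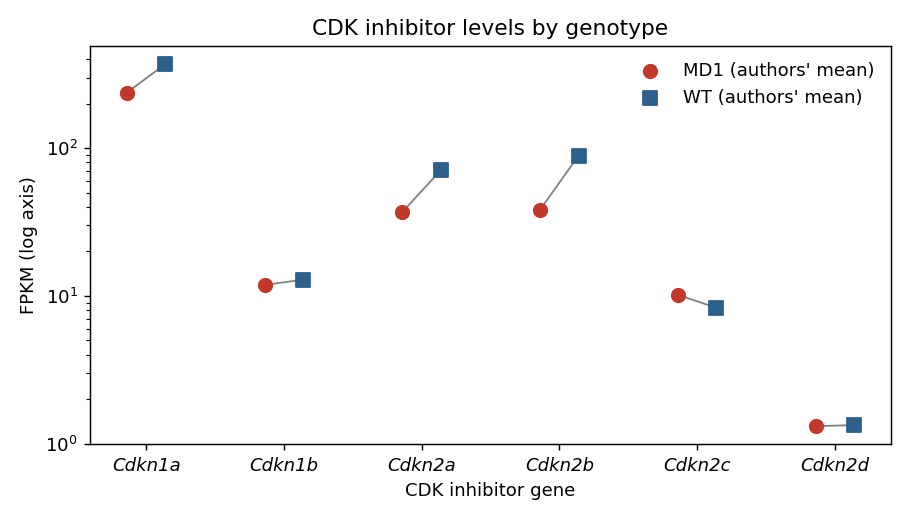
FPKM of the 6 CDK inhibitor genes on a log axis, with the authors' mean of MD1 as a red circle left of the mean of WT as a blue square. The points carry no error because the table holds 1 mean per genotype. Cdkn2b, Cdkn2a and Cdkn1a lie lower in MD1, and the lines of the other 3 genes are close to level.

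Cdkn2b showed the greatest difference of the 6 genes. It encodes p15INK4B and lies on chromosome 4 (88952198 to 88956941, minus strand, mm9). Its level was 38.3 FPKM in MD1 and 89.1 FPKM in WT, so that the MD1 level was 43.0% of the WT level. On the log2(FPKM + 1) scale, which is used for every ratio below, the difference of MD1 minus WT was -1.20. Among 11399 genes with a mean of at least 1 FPKM and a level above 0 in both genotypes, 1.97% had a lower ratio than Cdkn2b.

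Cdkn2a (chromosome 4, 88920377 to 88940523, minus strand) lies 11.7 kb from Cdkn2b and was lower as well. Its level was 37.0 FPKM in MD1 and 70.9 FPKM in WT, a log2 difference of -0.92, and 3.30% of the filtered genes had a lower ratio. The deposited value covers the whole gene, from which both p16INK4A and p19ARF are made, so the transcripts of these proteins cannot be told apart. In the RefSeq table of GRCm38.p6, Cdkn2a has 2 transcription starts 12.4 kb apart. The start farther upstream is that of the ARF first exon, and the other is that of the INK4A first exon.

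Cdkn1a (chromosome 17, 29227931 to 29237667, plus strand), the p53 target gene of p21, was by far the most abundant of the 6. Its level was 237.0 FPKM in MD1 and 370.1 FPKM in WT, or 64.0% of the WT level, with a log2 difference of -0.64. It ranked 248th in MD1 and 139th in WT by FPKM among all genes of the table. It thus remained a highly expressed gene in both genotypes.

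The sequences before the starts of these 3 genes are shown because they are the members that were lower together, and because the ARF and INK4A starts of Cdkn2a merge into 1 value. Each line gives the 250 bases before a RefSeq start (GRCm38.p6), on the strand of the gene. Capitals mark the GC box GGGCGG and the E2F motif TTTNNCGC in Cdkn2a, the cyclic AMP response element TGACGTCA in Cdkn2b, and p53 half-sites and the GC box in Cdkn1a, each searched on both strands.
Cdkn2a ARF start, minus strand, chr4:89294620-89294869: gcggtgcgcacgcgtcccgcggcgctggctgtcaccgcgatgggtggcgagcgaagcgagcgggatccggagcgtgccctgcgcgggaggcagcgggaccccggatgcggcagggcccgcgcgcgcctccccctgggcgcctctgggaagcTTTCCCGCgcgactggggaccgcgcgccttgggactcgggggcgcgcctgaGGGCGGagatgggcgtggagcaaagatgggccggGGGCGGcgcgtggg
Cdkn2a INK4A start, minus strand, chr4:89282193-89282442: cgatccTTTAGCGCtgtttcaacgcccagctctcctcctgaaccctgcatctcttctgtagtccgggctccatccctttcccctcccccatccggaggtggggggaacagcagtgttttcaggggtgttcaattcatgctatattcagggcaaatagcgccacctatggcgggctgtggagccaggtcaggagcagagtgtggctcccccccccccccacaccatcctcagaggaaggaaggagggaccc
Cdkn2b, minus strand, chr4:89311033-89311282: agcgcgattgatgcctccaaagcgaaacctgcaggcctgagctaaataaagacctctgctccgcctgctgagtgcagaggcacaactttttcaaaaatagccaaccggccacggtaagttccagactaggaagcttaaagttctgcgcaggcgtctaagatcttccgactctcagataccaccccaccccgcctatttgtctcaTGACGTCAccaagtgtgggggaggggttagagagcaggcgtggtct
Cdkn1a upstream start, plus strand, chr17:29090729-29090978: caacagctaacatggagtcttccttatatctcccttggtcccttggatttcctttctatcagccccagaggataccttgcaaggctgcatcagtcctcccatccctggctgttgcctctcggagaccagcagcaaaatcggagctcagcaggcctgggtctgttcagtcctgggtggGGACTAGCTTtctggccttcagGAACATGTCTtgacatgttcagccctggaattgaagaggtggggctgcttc
Cdkn1a downstream start, plus strand, chr17:29093519-29093768: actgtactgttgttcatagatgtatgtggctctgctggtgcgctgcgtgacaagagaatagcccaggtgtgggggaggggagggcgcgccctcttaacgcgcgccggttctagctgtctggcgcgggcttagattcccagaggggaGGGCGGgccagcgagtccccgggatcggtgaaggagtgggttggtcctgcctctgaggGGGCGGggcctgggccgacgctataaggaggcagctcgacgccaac

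None of these 4 motifs was found before all 3 genes. The ARF window held 2 GC boxes and 1 E2F motif, the INK4A window 1 E2F motif and no GC box. The Cdkn2b window held 1 cyclic AMP response element and neither of those motifs. The upstream Cdkn1a window held 2 p53 half-sites, which do not overlap, and the downstream one 2 GC boxes. Over 32851 RefSeq promoter windows of the same length, the GC box was found in 32.7%, the E2F motif in 4.28%, the cyclic AMP response element in 1.55% and a p53 half-site in 7.13%. The ARF window was also the richest of the 9 member windows in CG dinucleotides, with 40, against 7 in the INK4A window and a median of 6 over all windows. The GC box was also found before the 3 members that differed less, with 1 before Cdkn1b, 3 before Cdkn2c and 3 before Cdkn2d. Those of Cdkn2c were all in the window of its upstream start, and the window of its downstream start held none. Cdkn2d also had 1 p53 half-site. The CCAAT box, AP-1, E-box and TATA motifs were searched as well and had no match in the windows printed above. A match describes the letters only.

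Cdkn1b, the gene of p27, whose protein level is known to be set largely by degradation, had nearly the same RNA level in both genotypes. It lies on chromosome 6 (134870419 to 134875543, plus strand) and had 11.9 FPKM in MD1 and 12.9 FPKM in WT, a log2 difference of -0.11. Cdkn2c (chromosome 4, 109333481 to 109339361, minus strand), the gene of p18INK4C, was the sole member with a higher value in MD1, at 10.2 FPKM against 8.32 FPKM in WT, a log2 difference of 0.26. Cdkn2d (chromosome 9, 21092908 to 21095653, minus strand), the gene of p19INK4D, was close to the filter on low values, with 1.32 FPKM in MD1 and 1.34 FPKM in WT and a log2 difference of -0.013. The sign of so small a difference depends on the scaling, and after quantile normalization it was 0.073.

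All 6 members passed the filter. Of these, 3 were at least 1.5-fold lower in MD1, against 7.65% of all filtered genes, and 1 (Cdkn2b) was at least 2-fold lower, against 2.81%. None of the 6 was 1.5-fold higher, a bound passed by 6.05% of filtered genes, or 2-fold higher, passed by 1.39%. The median log2 difference was -0.37 over the members and 0.0058 over all filtered genes. Over all filtered genes, 50.8% were higher in MD1, the base for the counts of higher and lower genes in the lists below. With quantile normalization Cdkn1a was at -0.58, which left 2 members past the 1.5-fold bound. The nearest values on either side of the 1.5-fold bound were those of Cdkn1a (-0.64) inside and Cdkn1b (-0.11) outside. These counts describe the group means.

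**Figure D2:**
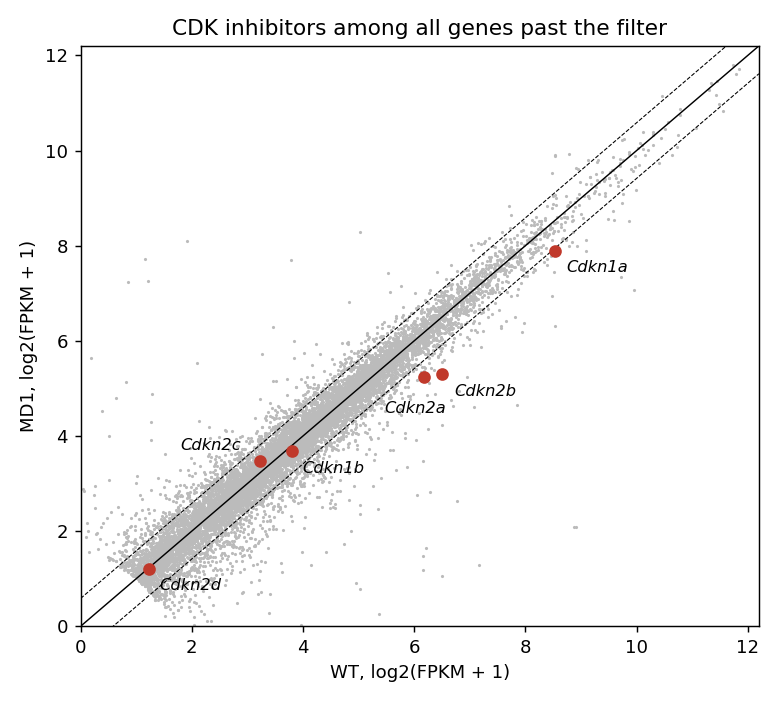
Each grey point is 1 of 11399 filtered genes, with log2(FPKM + 1) of WT on the x axis and of MD1 on the y axis. The solid line marks equal levels and the dashed lines a 1.5-fold difference. Cdkn1a, Cdkn2a and Cdkn2b (red) lie on the low side of the lower dashed line, and Cdkn1b, Cdkn2c and Cdkn2d lie between the lines.

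The order of the members by level was the same in both genotypes. In MD1 it was Cdkn1a, Cdkn2b, Cdkn2a, Cdkn1b, Cdkn2c and Cdkn2d, with 38.3 FPKM for Cdkn2b and 37.0 FPKM for Cdkn2a. In WT that pair had 89.1 FPKM and 70.9 FPKM. Without values per library, it cannot be said which neighbours in this order differ beyond their spread. Summed over the 6 genes, the level was 335.6 FPKM in MD1 and 552.6 FPKM in WT, or 60.7%. Cdkn1a alone made up 70.6% of that sum in MD1 and 67.0% in WT.

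Within the Ink4 family the makeup shifted. The 4 Ink4 genes summed to 86.8 FPKM in MD1 and 169.6 FPKM in WT. Cdkn2a and Cdkn2b supplied 86.8% of this sum in MD1 and 94.3% in WT, while Cdkn2c and Cdkn2d together had 11.5 FPKM in MD1 and 9.66 FPKM in WT. The kinase genes that Ink4 proteins target, Cdk4 and Cdk6, summed to 375.1 FPKM in MD1 and 332.5 FPKM in WT. The Ink4 sum therefore equalled 23.1% of the Cdk4 and Cdk6 sum in MD1 and 51.0% in WT. The Cdkn2a value in these sums includes ARF transcripts, which encode no CDK4 or CDK6 inhibitor, and the INK4A part of it was not separated. These are ratios of RNA and say nothing of the proteins.

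The expressed genes beside the Cdkn2a and Cdkn2b pair did not share its lower values. Mtap, a gene of methionine salvage that lies 93.4 kb from Cdkn2a, had 114.7 FPKM in MD1 and 85.2 FPKM in WT, a log2 difference of 0.43. The noncoding gene Gm12603 beyond it had 7.39 FPKM in MD1 and 1.88 FPKM in WT (1.54). On the other side, Dmrta1 was near 0, with 0.0479 FPKM in MD1 and 0.0771 FPKM in WT. Cdkn2b and Cdkn2a are each other's nearest gene, and no gene of the table overlaps either.

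Near Cdkn1a, the noncoding gene Trp53cor1, known as lincRNA-p21, lies 11.9 kb away and had 0.417 FPKM in MD1 and 0.306 FPKM in WT, under the filter. Srsf3, which encodes a splicing factor, had 58.3 FPKM in MD1 and 34.9 FPKM in WT (log2 difference 0.72). On the other side of Cdkn1a, Rab44 was listed at 0 in MD1 and at 0.0066 FPKM in WT. Next to Cdkn1b, 1190002F15Rik had 3.88 FPKM in MD1 and 3.62 FPKM in WT, and 2810454H06Rik was at 0.126 FPKM and 0.105 FPKM in MD1 and WT. Faf1, which lies 9.87 kb from Cdkn2c, had 19.5 FPKM in MD1 and 19.8 FPKM in WT, and 4930522H14Rik on its other side was listed at 0 in both genotypes. Beside Cdkn2d, Kri1 had 16.9 FPKM in MD1 and 16.1 FPKM in WT, and Ap1m2 was under 0.02 FPKM in both genotypes.

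The other genes named for CDK inhibitors went both ways. Cdkn1c, the imprinted gene of a further Cip/Kip protein, p57, had 54.0 FPKM in MD1 and 88.1 FPKM in WT, a log2 difference of -0.70, close to that of Cdkn1a. Cdkn3, which encodes a phosphatase that acts on CDKs and is highest in dividing cells, had 17.1 FPKM in MD1 and 11.5 FPKM in WT (0.54). Cdkn2aip, whose product binds ARF, had 5.24 FPKM in MD1 and 4.84 FPKM in WT (0.096). Cdkn2aipnl had 20.4 FPKM in MD1 and 12.0 FPKM in WT (0.71).

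The cyclins and kinases on which the inhibitors act went both ways. Of 12 genes, 8 had higher and 4 lower values in MD1, with a median log2 difference of 0.42. At least 1.5-fold higher were 5 of the 12, against 6.05% of filtered genes. The D-type cyclins, partners of the Ink4 targets, had lower values, with Ccnd2 at 104.7 FPKM in MD1 and 157.4 FPKM in WT, Ccnd3 at 80.0 and 98.8 FPKM, and Ccnd1 at 95.6 and 116.8 FPKM in MD1 and WT. Cdk6 had 5.85 FPKM in MD1 and 6.32 FPKM in WT, Cdk4 369.3 and 326.1 FPKM, and Cdk2 23.1 and 17.5 FPKM. The cyclins E, of the step into S phase, had higher values, with Ccne1 at 45.4 FPKM in MD1 and 27.8 FPKM in WT and Ccne2 at 20.4 and 9.12 FPKM. The kinase gene of mitosis, Cdk1, had 61.3 FPKM in MD1 and 32.0 FPKM in WT, and its partner Ccnb1 26.8 and 15.4 FPKM.

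The list of turnover and CDK regulation holds genes that degrade inhibitors or cyclins and genes that activate or, as Wee1 (0.56), restrain CDKs. Of its 16 genes, 13 had higher and 3 lower values in MD1, with a median of 0.24. Skp2, the ubiquitin ligase subunit that targets p27, had 17.4 FPKM in MD1 and 10.8 FPKM in WT (0.64). Dtl, which directs p21 to degradation in S phase, had 9.64 FPKM in MD1 and 5.02 FPKM in WT (0.82). Cdc25c, an activating phosphatase of Cdk1, had 7.71 and 4.80 FPKM in MD1 and WT (0.59). The lowest were Fbxw7 (-0.20), which directs cyclin E to degradation, Ddb1 (-0.12) and Cul4a (-0.026), the last at 51.6 FPKM in MD1 and 52.5 FPKM in WT.

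Downstream of the inhibitors, Rb1 itself was lower, with 6.37 FPKM in MD1 and 10.2 FPKM in WT (-0.60). Of 17 genes of the Rb, E2F and associated families, 16 passed the filter, with 10 higher, 6 lower and a median of 0.25. E2f1, whose own promoter responds to E2F, had 20.2 FPKM in MD1 and 15.2 FPKM in WT (0.38). The highest were Mybl2 at 8.34 and 4.83 FPKM, the Rb relative Rbl1 at 8.27 and 4.96 FPKM, and Lin9 at 8.92 and 5.47 FPKM in MD1 and WT. E2f6 (-0.20) and Tfdp2 (-0.17) followed Rb1 at the low end.

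All 26 genes of the replication and mitosis list had higher values in MD1, with a median of 0.77, and 22 of them were at least 1.5-fold higher, against 6.05% of filtered genes. That direction for proliferation genes was already known when the list was drawn up. The widest differences were at Cdt1, which licenses origins (22.3 FPKM in MD1 and 10.2 FPKM in WT), Mki67, the proliferation marker Ki-67 (32.8 and 15.8 FPKM), and Pcna, the clamp of DNA polymerase (83.3 and 42.7 FPKM). The narrowest were at Cdc20 (0.47), Rrm2 (0.56) and Mcm7 (0.57).

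**Figure D3:**
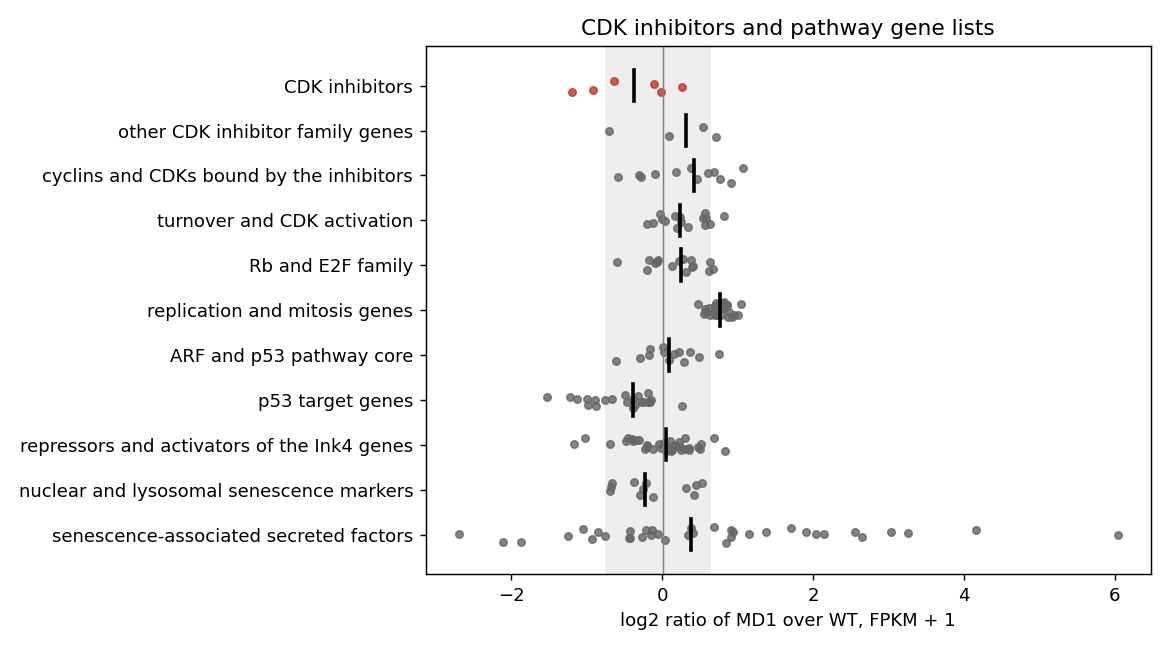
Each point is a gene of a list, placed by its log2 ratio of MD1 over WT on FPKM + 1, with the list's median as a black bar. The grey band runs from -0.75 to 0.64, the 5th to 95th percentile of all filtered genes. The CDK inhibitors (red) reach below the band at Cdkn2b and Cdkn2a, and the replication and mitosis genes all lie above 0.

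Upstream of Cdkn1a and downstream of ARF, the p53 pathway genes showed no common direction. Of 13 core genes, 9 had higher and 4 lower values in MD1 (median 0.086). Trp53 had 107.4 FPKM in MD1 and 91.5 FPKM in WT (0.23). Mdm2, at once the inhibitor of p53 and its target, had 120.6 FPKM in MD1 and 148.1 FPKM in WT (-0.29), and Ccng1, another p53 target, 275.4 and 422.8 FPKM (-0.62). The checkpoint kinase gene Chek1 had 6.59 and 3.49 FPKM in MD1 and WT (0.76), Usp7 37.7 and 29.0 FPKM (0.37) and Trp53bp1 4.53 and 5.25 FPKM (-0.18). Npm1, whose product holds ARF in the nucleolus, had 889.7 and 634.8 FPKM (0.49), a value that its many processed copies in the genome make uncertain.

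The p53 targets other than Cdkn1a had mostly lower values, as Cdkn1a did. Of 24 listed, 23 passed the filter, 22 of which were lower and 1 higher, with a median of -0.39. At the low end were Gdf15 at 5.62 FPKM in MD1 and 18.1 FPKM in WT, Btg2 at 18.5 and 44.6 FPKM, and Gadd45a at 8.27 and 19.2 FPKM. Plk2 (0.26) was the higher one, and Xpc (-0.15) and Ercc5 (-0.16) came next to it. The list was drawn up with lower values of p53 targets already known.

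Among genes known to repress or activate Cdkn2a and Cdkn2b, 37 of 38 passed the filter, with a median of 0.052. Of these, 22 (59.5%) were higher, against 50.8% of all filtered genes, and 15 were lower. Polycomb proteins repress both Cdkn2a and Cdkn2b. Ezh2, the methyltransferase subunit, had 33.0 FPKM in MD1 and 20.1 FPKM in WT (0.69), Cbx2 5.76 and 2.80 FPKM (0.83), and Bmi1, whose loss raises Cdkn2a in mouse fibroblasts, 17.9 and 14.3 FPKM (0.31). Among other Polycomb genes listed, Ring1 had 4.30 FPKM in MD1 and 6.28 FPKM in WT (-0.46), and Rnf2 (0.023), Cbx6 (0.029) and Eed (0.052) had ratios near 0. Suz12 was at 0.35 and Cbx8 at 0.10. Myc, which with Zbtb17 represses Cdkn2b in human cells, had 65.5 FPKM in MD1 and 45.7 FPKM in WT. Transforming growth factor beta is a known inducer of Cdkn2b in human keratinocytes, and its ligand genes Tgfb2 (12.9 and 30.4 FPKM in MD1 and WT, -1.17) and Tgfb3 (72.9 and 149.6 FPKM, -1.03) had the lowest ratios of the list. Tgfb1 was at 28.3 and 25.0 FPKM (0.17). Cbx7 did not pass the filter, with 0.287 FPKM in MD1 and 0.384 FPKM in WT. Tbx2, a repressor of ARF, had 2.87 FPKM in MD1 and 5.24 FPKM in WT.

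Markers of the senescent state other than the inhibitors went both ways. Of 12 nuclear and lysosomal markers, 8 had lower and 4 higher values in MD1, with a median of -0.23. The list mixes genes expected to be higher in senescent cells, such as Glb1, with genes expected to be lower, such as Lmnb1. Its counts and median are therefore no measure of that state. The lower ones included Glb1, the lysosomal beta-galactosidase behind the usual senescence stain (32.2 FPKM in MD1 and 42.0 FPKM in WT), Fuca1 (25.7 and 41.9 FPKM), Ankrd1 (200.3 and 321.2 FPKM) and Ctsd (545.8 and 865.0 FPKM). Of the 4 higher ones, Lmnb1, the lamin B1 gene, known to decline in senescent cells, had 46.3 FPKM in MD1 and 33.6 FPKM in WT, the chromatin protein gene Hmga1 had 282.9 and 196.6 FPKM, and Hmgb1 had 30.3 and 22.4 FPKM, the last 2 with genome copies that make them uncertain.

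The secreted factors of the senescent state went both ways. Of 40 listed, 37 passed the filter, with 21 higher and 16 lower in MD1 and a median of 0.38. The higher share was 56.8%, against 50.8% of all filtered genes. As many as 17 were at least 1.5-fold higher, against 6.05% of filtered genes, and 8 at least 1.5-fold lower, against 7.65%. Among the 17, Cxcl1, Cxcl2 (0.0866 FPKM in WT) and Ccl5 (0.424 FPKM in WT) passed the filter on the mean only through their MD1 level. The 17 also include X-linked Timp1, at which paternal reads averaged 38.4% of allele-specific reads in MD1 and 0.0461% in WT. At the top were the chemokine genes Cxcl5 (152.1 FPKM in MD1 and 1.33 FPKM in WT), Cxcl1 (26.9 and 0.554 FPKM) and Ccl2, the last with 309.7 FPKM in MD1 and 31.4 FPKM in WT. Il6, a central cytokine of this group, had 18.6 FPKM in MD1 and 1.40 FPKM in WT. At the bottom were the insulin-like growth factor binding protein genes Igfbp5 (10.04 and 70.5 FPKM in MD1 and WT), Igfbp3 (16.6 and 75.3 FPKM) and Igfbp2 (29.6 and 110.6 FPKM). Lower inhibitor levels thus stood beside higher levels of several secreted factors in the MD1 means. Whether they occurred in the same library cannot be told from these means.

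Among the listed genes, those closest in log2 ratio to each member were found over the 2 group means alone. For Cdkn2b (-1.20) they were Myog (-1.20), Tgfb2 (-1.17) and Btg2 (-1.23), and for Cdkn2a (-0.92) Igfbp7 (-0.92), Bbc3 (-0.89) and Pmaip1 (-0.88). For Cdkn1a (-0.64) they were Col1a1 (-0.64), Ctsd (-0.66) and Ccng1 (-0.62). Within 0.05 of the ratio there were 44 filtered genes for Cdkn2b, 83 for Cdkn2a and 207 for Cdkn1a, and from 932 to 1514 for the other members. Those nearest to Cdkn1b were Rbl2, Sat1 and Twist1, to Cdkn2c Plk2, Tbx3 and Cul1, and to Cdkn2d Zbtb17, Cul4a and Cdk7. With 2 group means, likeness of ratio is a weak description.

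Of the marker lists of other cells, that of skeletal muscle had lower values throughout in MD1. All 6 skeletal muscle markers that passed the filter of 8 listed were lower in MD1, and the 8 summed to 49.8 FPKM in MD1 and 160.8 FPKM in WT. Muscle cells that have left the cell cycle are known to express Cdkn1a, and the part of this difference in the inhibitor levels was not tested. In bulk RNA, fewer cells of a type and less RNA per cell cannot be told apart. All 9 fibroblast markers passed the filter, Pdgfra with the least in WT (9.25 FPKM in MD1 and 4.79 FPKM in WT). Of these, 6 were higher and 3 lower in MD1, with a median log2 difference of 0.13. Their sum was nonetheless lower, at 5180 FPKM in MD1 and 6076 FPKM in WT. The 3 lower ones were Col1a1 (1081 and 1688 FPKM in MD1 and WT), Col1a2 (477.3 and 848.7 FPKM) and Pdgfrb (44.3 and 65.4 FPKM). The sums were 102.2 and 118.8 FPKM in MD1 and WT for 6 blood and macrophage markers, 8.02 and 10.2 FPKM for 6 endothelial markers, 24.8 and 19.97 FPKM for 5 epithelial markers, and 125.5 and 116.9 FPKM for 6 neural markers. The neural markers went both ways, with log2 differences of -1.29 for Map2 and 1.28 for Stmn2. The single marker at 0 was Krt5, in MD1. Smchd1 itself had 1.94 FPKM in MD1 and 14.7 FPKM in WT.

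Values per library exist for X-linked genes alone, as allele-specific reads. The maternal X is active in both genotypes, so maternal reads of X-linked cell-cycle and arrest genes were used as a view of culture state in each library. The 6 inhibitor genes are autosomal and have no such value. Maternal reads totalled 472270 and 560087 in the MD1 libraries and 523129 and 506930 in the WT libraries over 389 tested genes. Paternal reads were left out since they appear in MD1 at many of these genes, for example at 43.0% of Kif4 reads in MD1 and 0% in WT.

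Maternal reads of several replication and mitosis genes were higher in both MD1 libraries than in both WT libraries, but none of them passed the test. Kif4, a kinesin of the mitotic spindle, had 3267 and 3020 maternal CPM (maternal reads scaled by library size) in the MD1 libraries and 1142 and 2159 in the WT libraries. Ercc6l, a helicase of anaphase bridges, had 1941 and 2257 in MD1 and 861 and 1308 in WT. Pola1, the catalytic subunit of DNA polymerase alpha, had 1416 and 1430 in MD1 and 689 and 907 in WT. The MD1 libraries lay above both WT libraries at these genes, and WT replicate 1 was the lowest of the 4. Their log2 differences were 0.93 ± 0.33 for Kif4, 0.95 ± 0.26 for Ercc6l and 0.83 ± 0.21 for Pola1 (SE), with adjusted p of 0.404, 0.344 and 0.319 in edgeR's quasi-likelihood test.

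Eda2r, a p53 target gene on the X, and Foxo4, whose product acts upstream of p27, were lower in both MD1 libraries. Eda2r had 4708 and 5732 maternal CPM in MD1 and 8613 and 8944 in WT, a log2 difference of -0.75 ± 0.20 (SE; adjusted p = 0.344, edgeR). Foxo4 had 297 and 322 in MD1 and 414 and 504 in WT (adjusted p = 0.469, edgeR). Timp1, a secreted inhibitor of metalloproteinases, had 24774 and 21570 in MD1 and 14324 and 12920 in WT (adjusted p = 0.344, edgeR). DESeq2 called Eda2r (adjusted p = 0.0454) and Timp1 (0.00905). Psmd10, the gene of gankyrin, which binds CDK4 in competition with Ink4 proteins, overlapped between genotypes, with 463 and 528 in MD1 and 445 and 483 in WT.

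Over the 20 tested genes of this X-linked list, both MD1 libraries were higher than both WT libraries at 12, against 21.1% of the 389 genes, and lower at 4, against 23.9%. The median log2 difference was 0.30 in the list and -0.014 over all tested genes. In edgeR 1 of the 20 genes passed, Sat1, which fell (adjusted p = 0.0107), while 0.514% of the 389 genes were called higher and 1.03% lower. At an unadjusted p under 0.05 there were 8 of the 20 genes, against 42 of all 389 (10.8%). Cenpi, Haus7, Fancb, Prps1, Suv39h1, Rbbp7, Smc1a and Stag2 were higher in both MD1 libraries without passing, Prps2 was lower in both without passing, and Cdk16, Mcts1 and Taf1 overlapped. With WT replicate 2 left out, 8 genes of the list passed, Sat1 and Kif4, Ercc6l, Cenpi, Pola1, Fancb, Prps1 and Suv39h1, and 15 of all 389 genes were called higher and 18 lower. That fit has 1 WT library, which is assumed to vary like the MD1 pair, so the spread between the WT libraries does not enter it. Of these 8, Sat1 alone passed without WT replicate 1, and none passed without either MD1 library. For Kif4 the adjusted p in edgeR was 2.09e-05 without WT replicate 2, 0.422 without WT replicate 1, 0.560 without MD1 replicate 1 and 0.876 without MD1 replicate 2.

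Sat1, a polyamine acetyltransferase gene, showed a conflict between measures. It had 60 and 120 maternal CPM in MD1 and 1655 and 2165 in WT, while its FPKM was 145.5 in MD1 and 155.7 in WT. Paternal reads were 6.67% and 12.6% of its allele-specific reads in the MD1 libraries. With the reads of both alleles the log2 difference was -4.56 (adjusted p = 0.0160, edgeR), against -4.39 on maternal reads. The allele-specific reads and the FPKM thus did not move together at this gene, and the cause was not tested. Its call was lost without MD1 replicate 1 (adjusted p = 0.0504, edgeR) and without MD1 replicate 2 (0.0876).

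**Figure D4:**
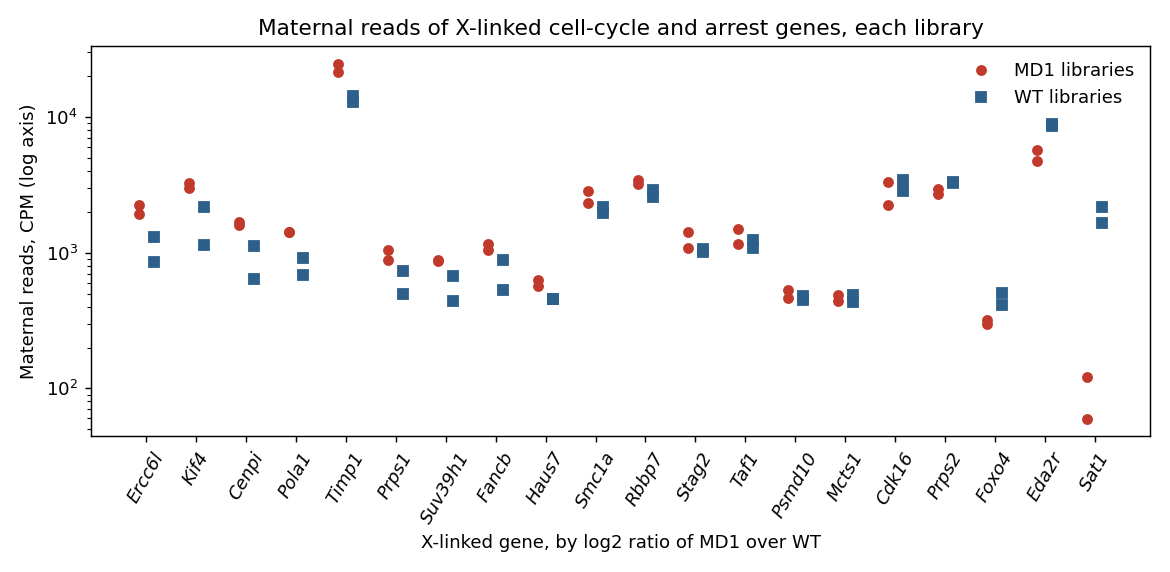
Maternal reads scaled by library size with edgeR (CPM), on a log axis for the 20 tested genes of the X-linked list, ordered by log2 ratio. Each red circle is an MD1 library and each blue square a WT library. Both circles lie above both squares at 12 genes, and the WT squares are far apart at Kif4, Cenpi and Fancb.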

How the data were processed

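Poly(A) RNA of 4 libraries, 2 MD1 and 2 WT, was sequenced with a stranded kit, per the labels' protocols. The authors deposited total expression as FPKM, with 1 mean per genotype. They deposited allele-specific reads of X-linked genes as counts per library, and the JF1 share of these as a fraction. The submitters' processing notes name mm9, Cufflinks 2.2.1 and Cuffdiff; the aligner, annotation and JF1 variants were not given in the sources. Coordinates are mm9, 1-based, with the deposited start moved up by 1; promoter windows carry GRCm38.p6.

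FPKM ratios used a pseudocount of 1 and genes with a mean of at least 1 FPKM and above 0 in both genotypes; with 1 mean per genotype no test was possible. Maternal counts were reads minus reads times JF1 share. X-linked genes other than Xist with a share in all 4 libraries and a mean of 20 or more maternal reads (389) were tested. The test was the two-sided quasi-likelihood F-test of edgeR 4.0.16 (R 4.3.3), with TMM and Benjamini-Hochberg over the 389 genes at 0.05. The SE of that test was the log2 ratio over the root of F. A check on simulated data came first. It used a lower dispersion than the common dispersion of 0.0818 in these libraries. It therefore does not show how many true or false differences would be called at their spread. DESeq2 1.42.0, other filters, pseudocounts and scalings, a replicate block and leaving out each library were alternatives. The replicates of a genotype differed beyond sampling noise (chi-square per degree of freedom 63.6 in MD1 and 98.3 in WT). P-values measure the spread between these libraries, which may be technical.

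Members and gene lists were chosen with earlier results of these data known. Named genes were the members, other genes of the CDK inhibitor family, the 3 highest and 3 lowest of each list, a fixed set of regulators, all tested genes of the X-linked list, and nearest neighbours. Some listed genes are not reported here.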

Additional observations from a re-analysis of the deposited data

How the results depend on the processing

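The 6 member ratios moved by less than 0.1 (log2) with a pseudocount of 0.1, with both genotypes rescaled to the same sum, with centring on the autosomal median and with quantile normalization. They ranged from -1.22 to -1.18 for Cdkn2b, -0.94 to -0.90 for Cdkn2a and -0.64 to -0.58 for Cdkn1a. With quantile normalization Cdkn1a was at -0.58, short of the 1.5-fold bound, which left 2 members past it. The median over the members was -0.64 with a filter at 5 FPKM, which drops Cdkn2d. The skeletal muscle median was -1.60, and -1.80 with a pseudocount of 0.1, -1.40 without a filter and -1.74 with a filter at 5 FPKM. The neural median was -0.16 and turned to 0.90 with the filter at 5 FPKM, with fewer genes left. The other list medians that were recomputed moved by less than 0.1; those of the epithelial and X-linked lists were not recomputed.

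On maternal reads, 2 X-linked genes were called higher and 4 lower. DESeq2 called 5 and 8, all allele-specific reads gave 4 higher, and leaving out 1 library gave 0 to 15 higher and 0 to 18 lower. With the replicate number as a block there were 12 higher and 11 lower, among them Ercc6l, Pola1 and Timp1. Deviations of libraries with the same number correlated at 0.397, which 2 pairs cannot settle as pairing. Cdk16 was at 0.43 with all allele-specific reads, against -0.17, and at -0.45 to 0.082 with 1 library left out. Mcts1 ranged from -0.075 to 0.11 and Psmd10 from -0.0032 to 0.21 in the same fits. Where a value changed, the cause was not tested. FPKM means cannot be recomputed without a library, so the member ratios have no such check.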
